A study of Homo sapiens with 12 samples.

Results

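The comparison described here asks what sorafenib changed in cells that also received perifosine. It sets 3 arrays of L-540 cells treated with 10 µM perifosine and 5 µM sorafenib for 24 h (the combination) against 3 arrays of cells treated with 10 µM perifosine alone for 24 h. Perifosine was therefore present in both groups, and sorafenib was what differed. These 6 arrays were chosen by their titles from the 12 arrays of cultured cells, which also hold 3 control arrays and 3 arrays with 5 µM sorafenib alone. L-540 is a human Hodgkin lymphoma cell line, grown in flasks and dosed a day after seeding. RNA from whole cultures was hybridised to Illumina expression BeadChips, and 8092 genes with a detected probe of 1 annotated gene were tested. Arrays of a group carry the letters A, B and C. Nothing in the labels says that the letters are separate cultures, so the p-values reflect only how far these arrays differ within a group, and that spread may be technical. The design rests on 1 line, 1 dose of each drug and 1 time, and no carrier for the control cells is named in the sources used here.

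Perifosine is an alkylphospholipid that enters membranes and hinders the membrane binding of the kinase AKT. Sorafenib is an inhibitor of RAF kinases and of several receptor tyrosine kinases. Cells keep their cholesterol steady through SREBP transcription factors, which leave the endoplasmic reticulum when sterols run low and switch on the enzymes that make cholesterol and fatty acids. Cells short of amino acids or with stressed endoplasmic reticulum or mitochondria slow translation and make more of the transcription factor ATF4, whose targets include the pseudokinase TRIB3 and the transcription factor DDIT3. Hodgkin cell lines often depend on JAK-STAT and NF-kB signals for growth, and secrete cytokines.

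The arrays of this comparison detected 9291 to 11495 probes each at a detection p under 0.01. Normalised values correlated at 0.956 to 0.984 between arrays of 1 of the 2 groups, and at 0.946 to 0.975 between the groups. Combination array B stood apart: it had the highest median intensity of the 12 arrays (648.7), the fewest detected probes (9291) and the lowest array weight (0.291). Counts or calls lost without it, or without another of the 6 arrays, are therefore given with the gene groups, and a printed list median is also given without it where its sign turned or it moved by over 1.5 times. The Hodgkin marker TNFRSF8 (CD30) was detected on all 6 arrays. Of the B cell markers, 2 of 8 were among the genes tested (BLK and EBF1), and MS4A1, CD79A, CD79B, PAX5 and CD22 were among those that were not. Tested markers numbered 4 of 12 for T and NK cells, among them NKG7 and CD2, 4 of 8 for monocytes and macrophages, 2 of 7 for fibroblasts, and 0 of 5 for both epithelium and endothelium. No marker of these lists, nor any of the 9 tested Hodgkin markers, passed the threshold between the 2 groups. The largest change among the monocyte markers was that of CSF1R, 0.73 (SE 0.184, adjusted p = 0.0612). In bulk RNA, fewer cells of a type and less RNA per cell cannot be told apart.

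Adding sorafenib changed 193 of 8092 genes (2.39%) at an adjusted p under 0.05 in limma, 128 upward (1.58%) and 65 downward (0.803%). Fold changes of at least 2 were reached by 56 of the higher and 29 of the lower genes. The higher genes rose by 0.56 to 1.99 on the log2 scale with a median of 0.94, and the lower genes changed by -0.61 to -1.91 with a median of -0.98. For each of the 193 genes the 3 combination values lay wholly above or wholly below the 3 perifosine values. Over all genes tested, 957 (11.8%) lay wholly above and 775 (9.58%) wholly below, so separation of the groups by itself was common. The median change over all genes was 0.00136, with 4062 genes (50.2%) above and 4030 (49.8%) below their perifosine mean. The list counts below are to be read beside these shares over all genes. Lists and members were chosen with earlier results of these data known, so the counts are a description and no test of the lists. Higher genes made up 66.3% of the calls. With each array centred on its median in place of quantile normalisation, this share was 56.1%, and 56.0% with no background correction either.

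The calls borrowed their error estimate from all 12 arrays. Fitted on the 6 arrays alone, 0 genes passed (1217 at an unadjusted p under 0.05, against 1509 in the 12-array fit). Leaving out combination array B gave 121 calls, perifosine array C gave 28, perifosine array B 29, combination array C 53 and combination array A 76.

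**Figure D1:**
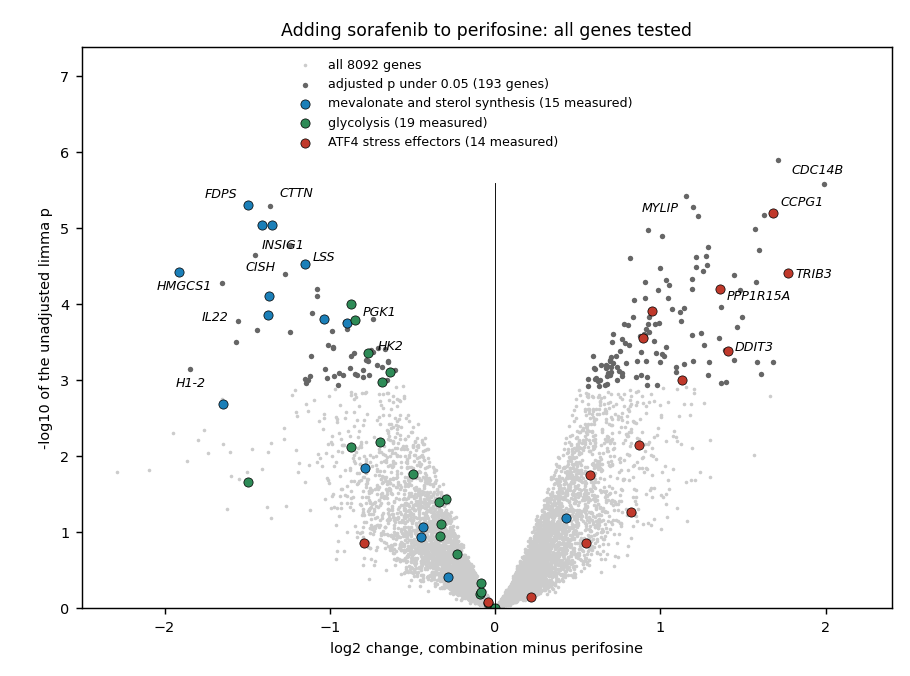
Each point is a gene, placed by its log2 change (combination minus perifosine, x axis) and the -log10 of its unadjusted limma p (y axis). Dark points are the 193 genes past the threshold. Sterol synthesis genes (blue), all but GGPS1, lie to the left, with HMGCS1 at -1.91, ATF4 stress effectors (red) mostly to the right, with TRIB3 at 1.77, and glycolysis genes (green) all left of 0.

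Among the gene lists examined, cholesterol synthesis held the most genes that fell. Of 21 listed genes of the mevalonate and sterol pathway 15 were tested, and 9 of them fell while none rose, where 0.803% of all genes fell. Combination means were below perifosine means for 14 of the 15, and 11 lay wholly below, against 9.58% of all genes. The median change of the 15 was -1.15, while that of all genes was 0.00136. Its size depended on the processing. It was -0.656 in the authors' deposited normalised table and -0.674 with median centring and no background correction. With background correction and median centring it was -1.18. IDI1, FDFT1, CYP51A1 and SC5D were not among the genes tested. The count of 9 was 7 without combination array B (6 without C, 8 without A), and 4 without either perifosine array B or C.

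Most of the changed genes act in order along the pathway. ACAT2, the thiolase that joins acetyl-CoA units, read 12.58, 12.63 and 12.93 (log2 intensity, arrays A, B and C) with perifosine and 11.59, 11.39 and 11.10 with the combination. It fell 2.55-fold (log2 change -1.35, SE 0.181, adjusted p = 0.0066). HMGCS1, which makes HMG-CoA, read 11.55, 11.59 and 11.19 with perifosine and 10.05, 9.56 and 8.98 with the combination. All 3 combination values of both genes lay below every perifosine value, and the HMGCS1 change was the largest fall of any called gene, at 3.77-fold (log2 -1.91, SE 0.298, adjusted p = 0.011). MVK, mevalonate kinase, fell 2.59-fold (log2 -1.37, SE 0.247, adjusted p = 0.0207). MVD, the decarboxylase later in the same branch, fell 2.58-fold (SE 0.23 on the log2 scale, adjusted p = 0.0145). Both kept a detected probe on only 2 of the 3 combination arrays.

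FDPS, which makes farnesyl pyrophosphate for sterols and for protein prenylation, had the tightest perifosine values of the group, 9.79, 9.82 and 9.83. With the combination it read 8.14, 8.33 and 8.49, a 2.82-fold fall (log2 -1.49, SE 0.188, adjusted p = 0.00613). LSS closes the sterol ring, and read 10.31, 10.93 and 10.79 with perifosine against 9.47, 9.35 and 9.76 with the combination (log2 change -1.15, SE 0.174, adjusted p = 0.0108). The group means of both genes differed by more than the spread within either group. NSDHL and EBP, which remodel the ring, fell by 0.89 (adjusted p = 0.0217) and by 1.04 (adjusted p = 0.0213). DHCR7, the last step to cholesterol, read 12.33, 12.48 and 12.69 with perifosine and 11.30, 11.18 and 10.80 with the combination. It fell 2.66-fold (adjusted p = 0.0066), and a second DHCR7 probe gave the same log2 change of -1.41.

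Of the 6 tested genes of the pathway that missed the threshold, MSMO1 was nearest, with a change of -1.65 (SE 0.417, adjusted p = 0.0613). SQLE, the squalene oxidase, changed by -0.79 (adjusted p = 0.146). Their combination arrays, too, all lay below the perifosine arrays. TM7SF2, HSD17B7 and PMVK changed by -0.45, -0.43 and -0.28 with overlapping groups, and GGPS1, which makes geranylgeranyl pyrophosphate, by 0.43.

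Set beside the other arrays, the perifosine means were above the control means, and the combination means below them, for each of the 9 genes that fell. FDPS averaged 9.81 ± 0.018 (SD, n = 3) with perifosine and 8.32 ± 0.174 with the combination, beside 9.21 ± 0.13 in control and 8.57 ± 0.389 in sorafenib arrays. LSS averaged 10.67 ± 0.327 with perifosine and 9.52 ± 0.208 with the combination, beside 9.63 ± 0.0708 in control and 9.38 ± 0.0388 in sorafenib arrays. Combination and sorafenib means thus lay near each other for both, with perifosine at the top. The fall from perifosine to combination and the difference between perifosine and control share the perifosine arrays, so these means are given side by side only.

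**Figure D2:**
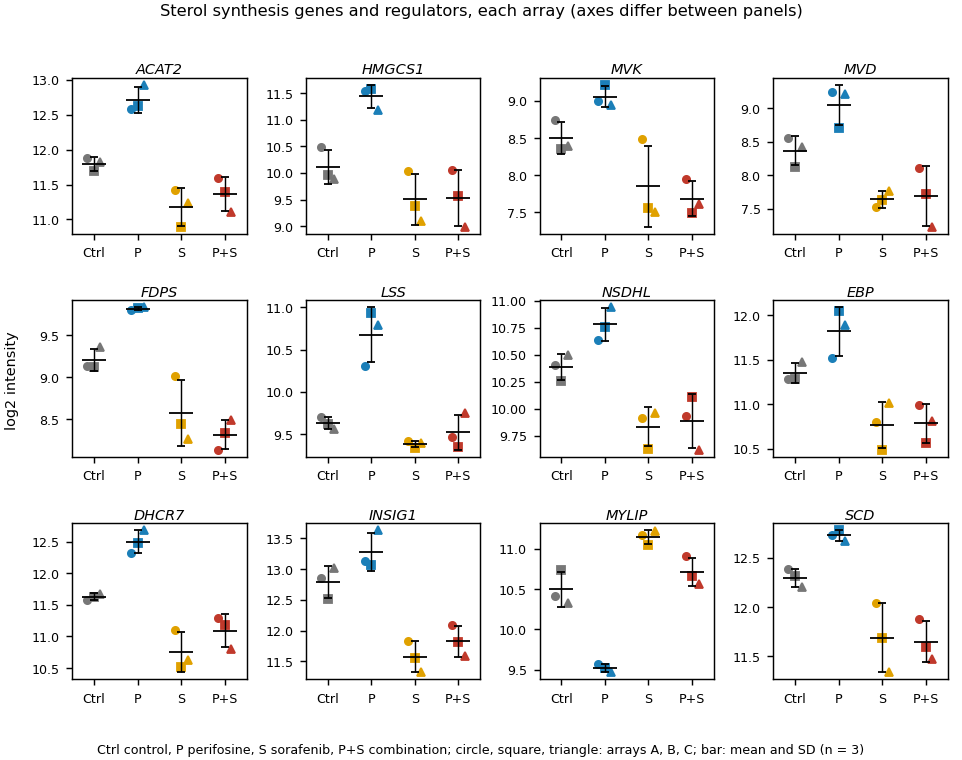
Log2 intensity of each array for 9 sterol synthesis genes, the sterol regulators INSIG1 and MYLIP, and SCD, in control (Ctrl), perifosine (P), sorafenib (S) and combination (P+S) cells. Bars give the mean and SD of 3 arrays. Perifosine means are the highest in every panel but MYLIP, where all 3 arrays are lowest (9.47 to 9.56), and combination arrays lie near the sorafenib arrays in most panels.

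Promoters of these genes were read from RefSeq (GRCh38.p14, 250 bases before to 50 after the start), to show what sequence the falling genes carry. Of the 9 genes 8 had an entry (ACAT2 did not). The CCAAT box (CCAAT on either strand, so also ATTGG, overlaps counted) was in 8 of 8, and in 11 of the 13 tested pathway genes with an entry (84.6%). Among promoters of the genes tested with an entry, 37.8% held it, and 34.6% of all promoters. The sterol response letters TCACNCCAC, searched on both strands, were in 0 of the 13 and in 1.06% of promoters of the genes tested. These motifs were chosen after the values were seen, and a match is a description, not a binding site. The promoters of FDPS (chr1:155308616-155308915, plus strand) and DHCR7 (chr11:71448344-71448643, minus strand) are shown with the CCAAT box in capitals, as genes of an early and a late step with small errors.
FDPS: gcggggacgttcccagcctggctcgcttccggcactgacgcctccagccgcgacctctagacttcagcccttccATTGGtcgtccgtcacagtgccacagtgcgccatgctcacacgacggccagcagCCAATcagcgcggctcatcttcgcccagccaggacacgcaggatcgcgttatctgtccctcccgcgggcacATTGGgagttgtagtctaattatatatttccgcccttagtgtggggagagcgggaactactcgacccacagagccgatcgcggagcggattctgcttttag
DHCR7: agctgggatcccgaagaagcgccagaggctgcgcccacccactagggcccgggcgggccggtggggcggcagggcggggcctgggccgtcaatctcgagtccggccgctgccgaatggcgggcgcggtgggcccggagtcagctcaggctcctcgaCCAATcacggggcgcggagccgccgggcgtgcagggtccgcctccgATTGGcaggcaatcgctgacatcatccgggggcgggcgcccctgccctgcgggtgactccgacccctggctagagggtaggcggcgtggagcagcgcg
FDPS carried 3 such boxes, at positions -176, -122 and -51 from the start site, and DHCR7 carried 2, at -94 and -48.

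The list of sterol sensing, uptake and export genes had 1 rise and 1 fall among 8 tested of 16. Of all genes 1.58% rose and 0.803% fell. None of the 8 tested genes encodes an uptake receptor, and the list mixes genes that moved in opposite directions. INSIG1, itself an SREBP target that holds SREBP in the endoplasmic reticulum, read 13.14, 13.07 and 13.64 with perifosine and 12.09, 11.81 and 11.59 with the combination. It fell 2.74-fold (log2 -1.45, SE 0.214, adjusted p = 0.00955), and its second probe changed by -1.15. MYLIP, a ubiquitin ligase that limits cholesterol uptake and is known as a target of sterol-activated LXR receptors, went the other way. Its values were 9.56, 9.52 and 9.47 with perifosine and 10.91, 10.67 and 10.56 with the combination, a 2.29-fold rise (log2 1.19, SE 0.151, adjusted p = 0.00613). INSIG1 and MYLIP each passed with any 1 of the 6 arrays left out. SREBF1, an SREBP gene, and INSIG2, the relative of INSIG1, changed by -0.45 and -0.53, and SCAP, the SREBP escort, by 0.28. The lysosomal cholesterol exporters NPC1 and NPC2 changed by -0.18 and -0.11, and the acid lipase LIPA by 0.22. None of these 6 passed. SREBF2, another SREBP gene, was not among the genes tested.

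In fatty acid synthesis, 2 of 10 tested genes fell, where 0.803% of all genes did, and none rose. SCD, the stearoyl-CoA desaturase, read 12.73, 12.78 and 12.67 with perifosine and 11.88, 11.60 and 11.47 with the combination (2.11-fold lower, adjusted p = 0.0145). FASN, fatty acid synthase, fell by 0.98 (SE 0.198, adjusted p = 0.0305). ACACA and ACLY, which supply malonyl-CoA and acetyl-CoA, changed by -0.32 and -0.33 without passing, and ACSS2, which makes acetyl-CoA from acetate, by -0.10. The list median was -0.25. The count of 2 was 1 without combination array A and 0 without combination array C, perifosine array B or perifosine array C.

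Among the lists, ATF4 stress effectors had the most genes that rose. Of 23 listed genes 14 were tested, and 7 rose while none fell, where 1.58% of all genes rose. Their median change was 0.88, 12 of the 14 had a higher combination mean (50.2% of all genes did), and 9 lay wholly above perifosine (11.8% of all genes). The count of 7 was 5 without combination array B, 3 without combination array A or C, and 1 without perifosine array B or C, with medians from 0.78 to 0.97 in these fits.

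TRIB3, a pseudokinase that binds AKT and ATF4, read 11.99, 11.44 and 11.42 with perifosine and 12.97, 13.82 and 13.37 with the combination. It rose 3.41-fold (log2 1.77, SE 0.276, adjusted p = 0.011). CCPG1, a receptor for the autophagy of endoplasmic reticulum, read 9.99, 9.22 and 9.38 against 10.99, 11.45 and 11.20, and rose 3.21-fold (SE 0.217, adjusted p = 0.00613). Perifosine array A was the highest of its group for both genes, yet it stayed below each combination array. DDIT3 (CHOP), which can promote cell death under stress, read 10.85, 9.96 and 10.03 with perifosine and 11.88, 11.35 and 11.83 with the combination (2.65-fold, adjusted p = 0.032). PPP1R15A (GADD34), which restores translation by directing the dephosphorylation of eIF2α, read 12.11, 11.53 and 11.67 against 13.20, 13.19 and 12.99 (2.56-fold, SE 0.224 on the log2 scale, adjusted p = 0.0129). Both followed the same order, with perifosine array A nearest to the combination. Array A was also the highest of the control arrays for TRIB3, CCPG1, DDIT3 and PPP1R15A (11.63, 9.29, 10.89 and 12.17). Of the sorafenib arrays it was the lowest for TRIB3, CCPG1 and DDIT3.

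CEBPG and CEBPB, bZIP factors that pair with ATF4, rose by 0.95 (adjusted p = 0.0192) and 0.89 (adjusted p = 0.0258). TNFRSF10B, the death receptor DR5 and a DDIT3 target, read 10.33, 9.47 and 9.86 with perifosine and 10.75, 11.25 and 11.05 with the combination (2.19-fold, adjusted p = 0.0446). Its 2 other probes changed by 0.64 and 0.42, and it passed only when perifosine array A was the array left out. CCPG1 was also the sole call among 26 tested genes of autophagy and lysosomes, where 2.39% of all genes were called. ATF4 mRNA itself changed by 0.57 (SE 0.208, adjusted p = 0.164) and ATF3, an early stress factor, by 0.87 (adjusted p = 0.107), each with combination arrays wholly above perifosine. DDIT4, an mTORC1 inhibitor that hypoxia and AKT signalling also control, changed by -0.80 (SE 0.5, adjusted p = 0.424) with overlapping groups.

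Promoters of 6 of these 7 genes had an entry. The letters TGATGNAAN, a form of the element bound by ATF4 with C/EBP partners, were in 0 of the 6 on either strand, in the ATF3 promoter among the 12 tested genes with an entry, and in 1.8% of promoters of the genes tested. The palindromic cAMP response element TGACGTCA, chosen after the values were seen, was in 1 of the 6 and in 3.68% of promoters of the genes tested. It lies at position -58 from the start of PPP1R15A (chr19:48872171-48872470, plus strand), shown with that element in capitals as the sole match among the genes that rose.
PPP1R15A: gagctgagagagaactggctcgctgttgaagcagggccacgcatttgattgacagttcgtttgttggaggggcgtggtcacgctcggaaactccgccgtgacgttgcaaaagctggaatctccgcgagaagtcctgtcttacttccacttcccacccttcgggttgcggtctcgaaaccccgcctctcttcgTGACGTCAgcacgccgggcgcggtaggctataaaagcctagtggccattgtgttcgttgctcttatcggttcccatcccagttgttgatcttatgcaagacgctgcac

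**Figure D3:**
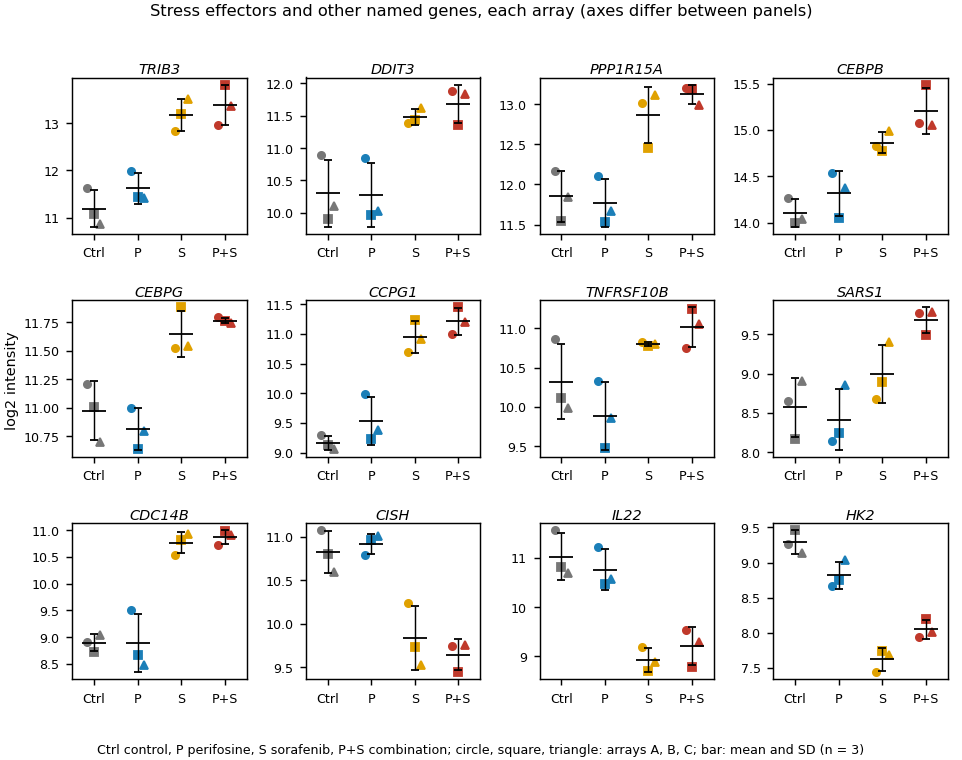
Log2 intensity of each array for 7 stress effectors that rose, SARS1, CDC14B, CISH, IL22 and HK2 in the 4 groups. Bars give the mean and SD of 3 arrays. Combination arrays lie above all perifosine arrays for the first 9 panels and below them for CISH, IL22 and HK2.

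Genes of amino acid supply, which ATF4 also controls, gave fewer calls. None of 14 tested genes on the list of amino acid synthesis and one-carbon metabolism passed. Of these, 12 had a higher combination mean, where 50.2% of all genes did, and the median change was 0.37. The largest changes there were those of PSPH, the last enzyme of serine synthesis (0.68, adjusted p = 0.116), and SHMT2, the mitochondrial serine hydroxymethyltransferase (0.61, adjusted p = 0.102). ASNS, asparagine synthetase, changed by 0.59 (adjusted p = 0.186). GLDC, which cleaves glycine and was outside this list, fell by 0.74 (limma adjusted p = 0.0213). In a list of 19 tested genes, aminoacyl-tRNA synthetases and the tRNA exporter XPOT, SARS1 alone rose, where 1.58% of all genes did. Seryl-tRNA synthetase, its product, charges tRNA with serine. SARS1 read 8.15, 8.25 and 8.86 with perifosine and 9.77, 9.49 and 9.78 with the combination (2.41-fold, SE 0.254, adjusted p = 0.0295). WARS1 and AARS1 changed by 0.82 (adjusted p = 0.0621) and 0.70 (adjusted p = 0.136), and the median of this list was 0.29. Without combination array B it was 0.14. SARS1 passed only when perifosine array C was the array left out. The 11 tested amino acid transporter genes had a median change of 0.0377 (-0.0255 without combination array B) and no call. SLC7A11, the cystine transporter, and SLC7A5, a leucine transporter, changed by -0.01 and 0.22.

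Glycolysis genes were lower on the combination arrays. All 19 tested genes of 22 had a lower combination mean, against 49.8% of all genes. Of these, 11 lay wholly below perifosine (9.58% of all genes), and 5 fell (0.803% of all genes) with none rising. The median change was -0.34. PFKFB3, which makes the activator of phosphofructokinase, read 11.10, 11.16 and 11.13 with perifosine and 10.05, 10.30 and 10.41 with the combination (1.83-fold lower, adjusted p = 0.0172). PGK1, phosphoglycerate kinase, read 12.82, 13.19 and 13.13 against 12.41, 12.06 and 12.13 (1.8-fold lower, adjusted p = 0.0213). HK2, the inducible hexokinase, fell by 0.77 (adjusted p = 0.0327), and its second probe changed by -0.17. ALDOA and TPI1, successive enzymes of the pathway, fell by 0.63 (adjusted p = 0.0413) and by 0.68 (adjusted p = 0.0467). PFKFB4 changed most in value, by -1.49, but ranged over 10.47 to 12.42 on the combination arrays, which overlapped with perifosine (adjusted p = 0.179). GAPDH and ENO1, enzymes of the lower pathway, changed by -0.09 and by -0.00364. The 5 calls were 3 without combination array B, 1 without combination array A or C, and 0 without perifosine array B or C. Hypoxia-inducible genes outside glycolysis had a median change of -0.36 and no call among 14 tested. ANKRD37 and BNIP3L, both HIF targets, changed by -1.01 (adjusted p = 0.174) and -0.98 (adjusted p = 0.215), and VEGFA by 0.17.

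Of 21 tested genes on the JAK-STAT list 2 fell, where 0.803% of all genes did, and none rose. STAT4, a STAT gene outside this list, rose by 1.00 (limma adjusted p = 0.0108). CISH, a feedback inhibitor and classic STAT5 target, read 10.79, 10.96 and 11.01 with perifosine and 9.74, 9.44 and 9.75 with the combination, a 2.42-fold fall (log2 -1.27, SE 0.199, adjusted p = 0.0112). OSM, the cytokine oncostatin M and also a STAT5 target, read 10.65, 10.72 and 10.92 against 9.82, 9.71 and 9.80 (1.98-fold lower, adjusted p = 0.0243). The 2 groups were well apart for both. SOCS3, a feedback inhibitor of STAT3 signalling, had a larger change of -1.79 but a wider spread, 7.76 to 9.21 with perifosine. It was detected on 0 of 3 combination arrays. Its mean was at least 2.17-fold lower, a difference that did not pass (adjusted p = 0.103). The survival kinase genes PIM1 and PIM2 changed by -0.84 (adjusted p = 0.0762) and -0.65 (adjusted p = 0.0557), with combination arrays wholly below. STAT3 and STAT5A, the transcription factors themselves, changed by -0.25 and -0.24. The count of 2 was 0 without perifosine array B or C and 1 without any 1 combination array, where CISH passed and OSM did not. The list median was -0.24, and -0.11 without combination array B.

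Among 15 tested cytokine, chemokine and receptor genes, CCL3 and IL22 fell, where 0.803% of all genes did. CCL3 encodes a chemokine that draws monocytes and T cells. It read 8.50, 8.23 and 7.95 with perifosine and 6.45, 6.19 and 7.07 with the combination (log2 -1.66, SE 0.267, adjusted p = 0.0122), and was detected on 3 perifosine arrays, 1 combination array and 0 control arrays. The near-identical copy CCL3L3, whose probe may share its target, fell by 1.11 (adjusted p = 0.0198). IL22, a cytokine of T helper and innate lymphoid cells, read 11.23, 10.47 and 10.58 against 9.54, 8.78 and 9.29, a 2.94-fold fall (adjusted p = 0.0217). A second IL22 probe changed by -2.19. The count of 2 was 0 without perifosine array B, and without perifosine array C or combination array B or C it was 1, CCL3. The list median was -0.12, and -0.01 without combination array B. TNFRSF8 changed by -0.58 (adjusted p = 0.126). CXCR4, the receptor for CXCL12, and TNFSF10, the death ligand TRAIL, changed by 0.70 (adjusted p = 0.0748) and 0.77 (adjusted p = 0.172).

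In the list of 14 tested NF-kB subunits and targets, TNF fell and NFKBIE rose, where 0.803% of all genes fell and 1.58% rose. TNF was detected on 3 perifosine arrays but 1 combination array (log2 change -1.12, SE 0.252, adjusted p = 0.0421). NFKBIE, which encodes the inhibitor IκBε, was detected on 0 perifosine and 3 combination arrays and was at least 1.33-fold higher (adjusted p = 0.0427). Such a bound sets the mean of the brighter group against the lowest signal counted as detected. It makes no allowance for the spread between arrays. Both passed only when perifosine array A was the array left out. The list median was 0.14, and 0.28 without combination array B. NFKB1, which encodes p105 and p50, changed by 0.57 (adjusted p = 0.0918). NFKBIA and TNFAIP3, feedback inhibitors, changed by 0.52 and -0.08.

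Genes of cell death gave 1 call, TNFRSF10B, among 12 tested proapoptotic and death receptor genes, where 2.39% of all genes were called. FAS, another death receptor, was detected on 0 perifosine and 2 combination arrays, with an adjusted p of 0.06. PMAIP1 (NOXA) was detected on 0 perifosine and 2 combination arrays (adjusted p = 0.288), and BAX changed by 0.19. None of 8 tested antiapoptotic genes passed. MCL1, BCL2 and BCL2L1 changed by -0.11, 0.08 and -0.01, and BIRC5 (survivin) by 0.33 (adjusted p = 0.338).

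CDC14B, a cell cycle phosphatase, had the largest rise of all called genes. It read 9.50, 8.67 and 8.48 with perifosine and 10.73, 10.99 and 10.90 with the combination (3.97-fold, log2 1.99, SE 0.235, adjusted p = 0.00613), and a second probe changed by 2.34. CDC25A, which activates CDKs for entry into S phase, fell by 0.68 (adjusted p = 0.0387). These were the calls among 18 tested cyclin, CDK and inhibitor genes. Counts in this paragraph stand beside 1.58% of all genes that rose and 0.803% that fell. TK1 (thymidine kinase) and CDT1 (replication licensing) fell by 0.67 (adjusted p = 0.0308) and by 0.61 (adjusted p = 0.0398), the 2 calls among 32 DNA replication genes, whose median was -0.23. INCENP, a chromosomal passenger protein, was the call among 29 mitosis genes (-1.08, adjusted p = 0.0129), but its second probe changed by 0.00372. Histone genes had a median change of -0.54 over 16 tested and 2 calls. H1-2, a linker histone, read 11.05, 9.91 and 10.10 with perifosine and 9.23, 7.63 and 8.67 with the combination (log2 -1.85, SE 0.406, adjusted p = 0.0394). H2AC8 was detected on 1 perifosine and 0 combination arrays (means 6.93 and 5.95, adjusted p = 0.0421). Combination array B was the lowest for both, and without it the histone median was -0.30 with no call. Array B was also lowest for the histone H4C3 (13.32 against 15.77 and 15.30). CDC14B passed with any 1 array left out, INCENP did not pass without perifosine array B or C, TK1 and CDC25A passed only without perifosine array A, and CDT1 in no such fit. H1-2 and H2AC8 passed only without combination array A. The part of array B in these results was not tested.

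Protein folding, turnover and translation lists had few calls, all of them falls, where 0.803% of all genes fell. CALR (calreticulin, a lectin chaperone) fell by 0.91 (adjusted p = 0.0217), the call among 20 endoplasmic reticulum chaperone genes. None of 20 heat shock and chaperonin genes passed, although 17 had a lower combination mean, where 49.8% of all genes did. The list median was -0.20, and -0.30 without combination array B. HSPA1B, an inducible HSP70, was nearest, at 2.01-fold lower (adjusted p = 0.0558). PSMD1, a proteasome base subunit, fell by 1.01 (adjusted p = 0.0293), 1 of 24 proteasome genes. PRDX1, a peroxiredoxin, fell by 0.66 (adjusted p = 0.0447), 1 of 16 NRF2 and redox genes. RPL29 fell by 1.13 (adjusted p = 0.0448), 1 of 42 cytosolic ribosomal protein genes, with array B lowest of the combination (9.68 against 10.48 and 10.99). None of 33 respiratory chain genes passed. Their median was -0.26, and -0.0684 without combination array B, where COX7B read 6.56 against 9.32 and 9.76 on the other combination arrays. CALR did not pass without perifosine array B or C or combination array C. PSMD1 passed only without perifosine array A, RPL29 only without combination array C, and PRDX1 with no array left out. No gene passed among 28 mitochondrial ribosomal protein, 23 MYC and ribosome biogenesis, 29 splicing factor and 23 translation factor genes, with list medians of -0.06, -0.24, -0.15 and 0.00876. Without combination array B the first was 0.03 and the last -0.01, and the median of the cytosolic ribosomal proteins went from -0.05 to 0.05.

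Antigen presentation genes were slightly higher. All 16 tested genes of HLA class I and II presentation had a higher combination mean, where 50.2% of all genes did. Their median change was 0.35, and 7 lay wholly above perifosine (11.8% of all genes). The median was 0.267 in the authors' deposited normalised table. With median centring and no background correction it was 0.172, and 14 of the 16 were higher. HLA-DMB, which helps load peptide onto class II molecules, was the call, where 1.58% of all genes rose. It read 11.56, 11.84 and 11.88 with perifosine and 12.48, 12.66 and 12.48 with the combination (1.72-fold, SE 0.145 on the log2 scale, adjusted p = 0.0217). HLA-DMB passed only when combination array B was the array left out, and in none of the 5 other such fits. HLA-B changed by 0.51 (adjusted p = 0.111) and CD74 by 0.33. HLA genes are close relatives, so their probes may share targets. Interferon-stimulated genes split, with a median change of 0.0663 over 16 tested (0.11 without combination array B). IRF1, a transcription factor, rose by 0.96 (adjusted p = 0.0276) and OAS1, which makes the activator of RNase L, fell by 0.71 (adjusted p = 0.0305), though the 2 other OAS1 probes changed by -0.15 and 0.24. IRF1 passed only without perifosine array A or combination array C, and OAS1 in no fit with an array left out. ISG15 changed by 0.00652.

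The genes of the drugs' target pathways were not called. Of 19 listed target kinases 8 were tested. ARAF, MAP2K1, MAP2K2, MAPK3, AKT1 and MTOR changed by between -0.24 (AKT1) and 0.24 (ARAF), with overlapping groups. AKT2 was detected on 0 perifosine arrays and 1 combination array. PDGFRA, a sorafenib target, was detected on 2 perifosine and 0 combination arrays (adjusted p = 0.343). BRAF, KDR, FLT3, KIT and PDGFRB were not among the genes tested. No ERK output or immediate early gene of 14 passed. ETV5, an ERK-induced ETS factor, was detected on 2 perifosine and 0 combination arrays. Its mean was at least 1.22-fold lower, a difference that did not pass (adjusted p = 0.0583). IER3 changed by -1.65 with a wide spread (adjusted p = 0.107). DUSP5 and SPRY1, feedback inhibitors of ERK signalling, changed by 0.11 and -0.01. None of 19 PI3K, AKT and FOXO genes passed, the largest change being that of INPP5D (the phosphatase SHIP1) at 0.96, detected on 1 perifosine and 3 combination arrays (adjusted p = 0.0988).

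**Figure D4:**
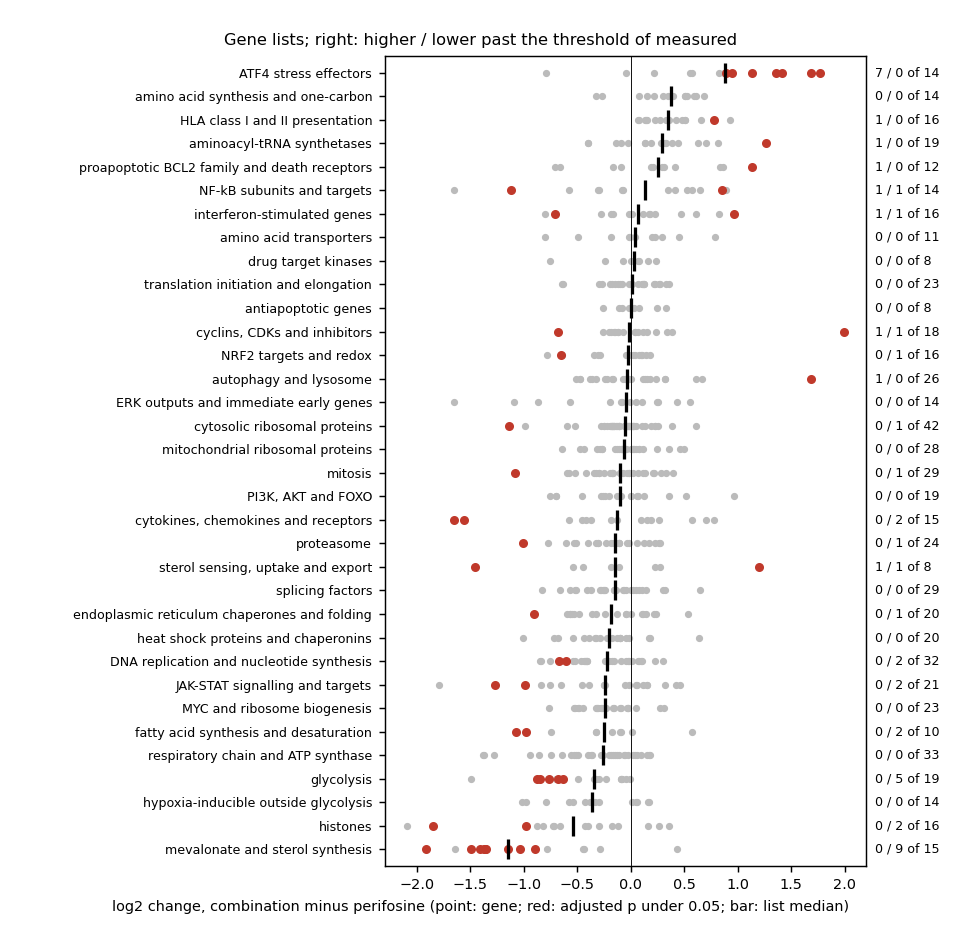
Log2 change (combination minus perifosine, x axis) of every tested member of 34 gene lists, sorted by list median (black bar). Red points are genes past the threshold and the numbers at right count those higher and lower of those tested. ATF4 stress effectors top the plot with 7 higher, and sterol synthesis is lowest with 9 lower.

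The other large rises were spread over genes of varied function. ZFAND2A, an arsenite-inducible zinc finger protein linked to the proteasome, read 8.85, 8.78 and 8.39 with perifosine and 10.52, 9.78 and 10.50 with the combination (3.02-fold, adjusted p = 0.00915). ADAP1, an ARF GTPase-activating protein, read 9.11, 9.43 and 9.70 against 10.81, 11.08 and 11.07 (2.97-fold, adjusted p = 0.0066). For both genes the difference between the group means was larger than the spread within either group. SH3RF2, a ring finger protein, rose by 1.68 (adjusted p = 0.0361). CSNK1G1, a casein kinase, rose by 1.49 (adjusted p = 0.0209), and its second probe changed by 0.60. LRRC37B, of a duplicated gene family whose probes may share targets, rose by 1.61 (adjusted p = 0.0421). PRELID3A was detected on 1 perifosine and 3 combination arrays and rose by 1.58 (adjusted p = 0.0121). The other 3 of the 12 largest rises came from genes detected on no perifosine array: the pseudogene TPM3P9 was at least 2.61-fold higher (adjusted p = 0.00613), KRTAP17-1 at least 2.13-fold (adjusted p = 0.00613) and MTAP, detected on 2 combination arrays, at least 1.27-fold (adjusted p = 0.0361). ZFAND2A, ADAP1, TPM3P9 and KRTAP17-1 passed with any 1 array left out. SH3RF2 and MTAP passed only without combination array A, CSNK1G1 only without perifosine or combination array A, and LRRC37B in no such fit. PRELID3A did not pass without perifosine array C or combination array C.

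Among the largest falls outside the lists, CTTN (cortactin, an actin regulator) read 8.36, 8.77 and 8.62 with perifosine and 7.53, 6.89 and 7.24 with the combination (2.57-fold lower, adjusted p = 0.00613). Its second probe changed by -0.61. PLAT, tissue plasminogen activator, was detected on 3 perifosine and 0 combination arrays and was at least 1.58-fold lower (adjusted p = 0.0238). S100A13, a calcium-binding protein, fell by 1.57 (adjusted p = 0.0278), but its other probes disagreed, with changes of -0.87 and 0.34. CTTN passed with any 1 array left out, PLAT only without combination array A and S100A13 only without perifosine array A.

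The same drug could also be followed in cells without perifosine, as sorafenib minus control. The 2 differences have no array in common, but normalisation, the detection filter and the error estimate were shared over all 12 arrays. Sorafenib minus control changed 119 genes, 77 upward (0.952%) and 42 downward (0.519%). Both comparisons shared 51 higher and 20 lower genes, and none was called in opposite directions. The 71 shared genes were 36.8% of the 193 and 59.7% of the 119. All 193 genes had a change of the same sign without perifosine (74.6% of all genes did). Across the 8092 genes, which are not independent, the changes with and without perifosine correlated at 0.686 (Pearson) and 0.651 (Spearman), with similar spread (SD 0.404 and 0.384).

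The difference between both changes was tested directly as an interaction, and 0 of 8092 genes (0%) passed in limma, with 163 (2.01%) at an unadjusted p under 0.05 and every adjusted p at 1. No gene's response to sorafenib was therefore shown to depend on perifosine, and a missed threshold does not show that the responses were alike. Of the 193 genes 21 had an unadjusted interaction p under 0.05. The fall was larger in value with perifosine present for 54 of the 65 lower genes, and the rise for 97 of the 128 higher genes. The 193 were chosen for a large change with perifosine present, so these counts lean that way by construction.

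For the sterol pathway the median change was -1.15 with perifosine and -0.58 without. Of its 15 genes, 13 had an interaction value below 0, with 4 at an unadjusted p under 0.05 (2.01% of all genes). Their median interaction was -0.637, against 0.000567 over all genes. Other lists also leaned below 0, among them cytosolic ribosomal proteins (34 of 42, median -0.143) and respiratory chain genes (23 of 33, median -0.224). HMGCS1 fell by 1.91 with perifosine present and changed by -0.61 without it (interaction -1.31, SE 0.421, unadjusted p = 0.00944). LSS gave -1.15 and -0.25 (interaction -0.90, SE 0.247, unadjusted p = 0.0034). FDPS gave -1.49 and -0.63 (interaction -0.86, SE 0.266, unadjusted p = 0.00727). CCL3 gave -1.66 and -0.28 (interaction -1.38, SE 0.378, unadjusted p = 0.00354). All of these interactions had an adjusted p of 1. The 4 genes share higher perifosine means than control means, and their interactions use the same perifosine arrays. Glycolysis leaned the other way, with a median change of -0.34 with perifosine and -0.70 without, and 2 of 19 interaction values below 0. So did hypoxia-inducible genes outside glycolysis, with 1 of 14 below 0. HK2 had the smallest interaction p of all genes: it changed by -0.77 with perifosine and -1.67 without (interaction 0.90, SE 0.224, unadjusted p = 0.00178). Its mean fell from 9.29 ± 0.166 (control) to 7.62 ± 0.161 (sorafenib) without perifosine, and from 8.82 ± 0.196 to 8.05 ± 0.136 with it (SD, n = 3). ATF4 stress effectors had medians of 0.88 with perifosine and 0.60 without, and no interaction p under 0.05 among 14 genes. TRIB3 gave 1.77 and 1.99 (interaction -0.22, SE 0.39, unadjusted p = 0.58), CDC14B 1.99 and 1.87 (interaction 0.12, SE 0.333) and IL22 -1.56 and -2.09 (interaction 0.54, SE 0.404).

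Against control cells, the combination mean was higher for all 128 genes that rose and lower for 64 of the 65 that fell. Perifosine means were above control for 36 of the 65 and below it for 74 of the 128. For 35 of the 65, perifosine lay above and the combination below control. The genes were chosen for a large difference between these same combination and perifosine arrays. That choice by itself favours combination means beyond control and perifosine means on its other side. No share over all genes is given beside these counts, so they serve as description only.

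**Figure D5:**
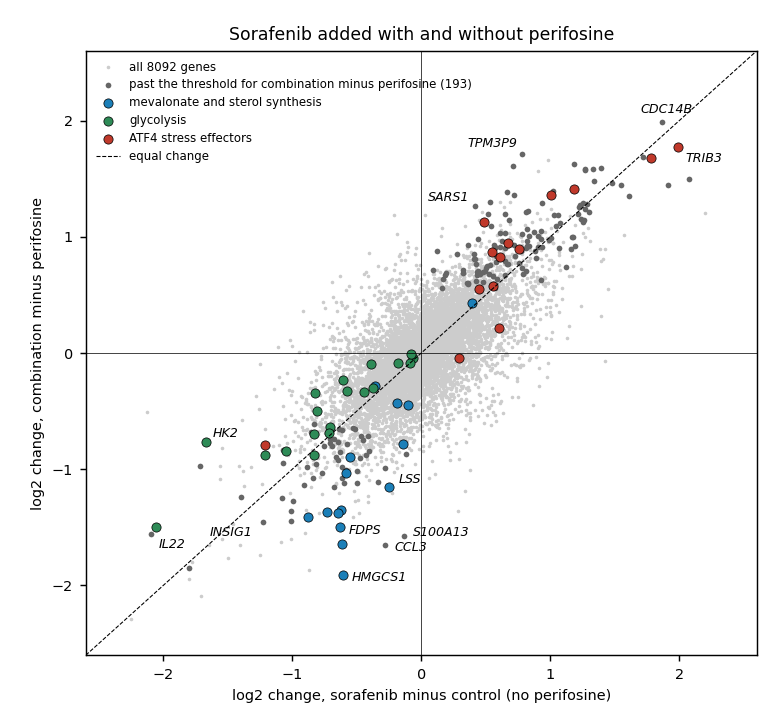
Log2 change on adding sorafenib without perifosine (x axis) and with perifosine (y axis) for all 8092 genes; the dashed line marks equal change. Dark points are the 193 genes called with perifosine, all of the same sign on both axes. Most sterol synthesis genes (blue), such as HMGCS1 (-0.61, -1.91), lie below the line, and HK2 (-1.67, -0.77) above it.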

How the data were processed

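RNA of L-540 cells was measured on Illumina BeadChips. The software was BeadStudio, per the submitters' processing notes. The deposited table, per the file headers, holds unnormalised probe intensity and a detection p-value for each array. The authors' deposited normalised intensity table served as an alternative, and the sources used here do not state its method. Intensities were background-corrected, quantile-normalised and put on the log2 scale with neqc (limma 3.58.1, R 4.3.3, offset 16). Of 48803 probes, 11904 were kept (detection p below 0.01 on 3 or more of 12 arrays). Of these, 10117 had 1 gene symbol in GEO's platform annotation, and the probe with the highest mean stood for each of 8092 genes. One limma fit with a mean for each of 4 groups of 3 arrays gave every contrast, with Benjamini-Hochberg adjustment over 8092 genes and a threshold of 0.05. The code was tested on simulated data. An exact permutation test of 3 arrays against 3 cannot go below p = 0.1. Named genes were the 12 largest rises and falls, up to 4 called members of each of 41 lists, up to 2 members of largest change of a list without calls, and drug target kinases. Other list members were named after their values were seen. Members and lists were chosen with earlier results of these data known. The number of arrays limits the precision.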

Additional observations from a re-analysis of the deposited data

Results flagged for a closer look

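Probes without a gene name in the annotation were outside the comparisons above. Of 1785 such probes that passed the detection filter, 20 passed the threshold in a fit over all 11904 kept probes, 10 higher and 10 lower with the combination. ILMN_1906423 fell by 2.22 on the log2 scale (SE 0.355, limma adjusted p = 0.015) and ILMN_1657395 fell by 1.44 (adjusted p = 0.024). ILMN_1680840 rose by 1.37 (adjusted p = 0.0347) and ILMN_1667232 by 1.33 (adjusted p = 0.029). In that fit 175 probes passed in all.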

How the results depend on the processing

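Combination minus perifosine gave 193 calls, and 409 in the authors' normalised table, 53 with no filter on dim probes, 0 on the 6 arrays alone, 367 with array weights, 501 with the replicate block (314 higher, 187 lower), and 28 to 167 with 1 array left out. Sorafenib minus control gave 119, and 292 in the authors' table, 218 with median centring and no background correction, 35 with no filter, 193 with detection on 3 arrays of a group, 14 on its 6 arrays alone, 386 with array weights, 404 with the replicate block, and 19 to 72 with 1 array left out. All 193 calls were kept under array weights and under the block, 191 with offset 50 and 176 in the authors' table. The interaction gave 0 in each setting run. Of the 53 named genes past the threshold, none changed direction in any setting, and 14 stayed past it without perifosine array B, 15 without perifosine array C, 29 without combination array B and 0 on the 6 arrays alone. The loss on 6 arrays goes with fewer arrays for the error; the cause of the other moves was not tested. Deviations of same-letter perifosine and combination arrays correlated at 0.231, -0.161 and 0.0844 for A, B and C, and perifosine array B correlated best with combination array C (0.267), so the letters were not taken as pairs. The second principal component was nonetheless higher for array A than for array C in all 4 groups. Any difference between letters that the groups share stays in the error of the main fit, which has no term for the letter. Whether the letters mark a batch was not tested. Under the replicate block, ATF4 stress effectors had 8 higher and 1 lower, histones 6 lower, glycolysis 8 lower, sterol synthesis 10 lower, NF-kB genes 4 higher and 3 lower, DNA replication 5 lower and JAK-STAT genes 1 higher and 4 lower. Dim genes are limited by signal over background: 11 of the 193 were detected on no perifosine array and 4 on no combination array.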

Other observations

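The following genes outside the lists were picked after their values were seen, so they stand for no group. ALOX5AP, which presents arachidonate to 5-lipoxygenase, rose by 1.45 with sorafenib added to perifosine (limma adjusted p = 0.0112). KIR2DL4, an NK cell receptor with close relatives in its family, rose by 1.48 (adjusted p = 0.0129), and TNFSF13B, the B cell survival factor BAFF, by 1.22 (adjusted p = 0.00955). STAT4, which carries interleukin-12 signals, rose by 1.00 (adjusted p = 0.0108), SKAP1, a T cell adaptor, by 1.09 (adjusted p = 0.0384), and HLA-DOA, a class II chaperone, by 0.90 (adjusted p = 0.0253). PLCG2, a phospholipase of B cell receptor signalling, rose by 0.71 (adjusted p = 0.0279), and BTG1, an antiproliferative gene, by 1.04 (adjusted p = 0.0147). GTPBP2 and NIBAN1, both reported to respond to stress signalling, rose by 1.14 (adjusted p = 0.0184) and 0.98 (adjusted p = 0.0129).

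Falls outside the lists included PDE1B, a cyclic nucleotide phosphodiesterase detected on 0 combination arrays (at least 1.69-fold lower, adjusted p = 0.0248), ARSB, a lysosomal sulfatase (-1.24, adjusted p = 0.00883), FURIN, a proprotein convertase (-0.80, adjusted p = 0.0427), and GLDC, which cleaves glycine in mitochondria (-0.74, adjusted p = 0.0213). Each of these 14 genes had a change of the same sign when sorafenib was given without perifosine. So had all 193 called genes, and 74.6% of all genes, so this sets the 14 apart in no way.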
